A study of Mus musculus with 26 samples.

Results

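Axon guidance ligands and receptors are the secreted or membrane-bound cues, and the surface proteins that read them, through which a growing axon is attracted or repelled. Semaphorins signal through plexins, the secreted class 3 semaphorins mostly with a neuropilin as co-receptor, Slits through Robo receptors, ephrins through Eph receptor tyrosine kinases by cell contact, and netrins through Dcc, neogenin (Neo1) and the Unc5 receptors. Several of these families also act well before axons form, in cell sorting and boundary formation of the early embryo, in epithelia and in blood vessels. The genes described here are the 70 rows, of 55291 in each of 2 RNA-seq count tables, whose symbol belongs to one of these families: 20 semaphorins, 3 Slits, 8 ephrins and 4 netrins as ligands (35 genes), and 9 plexins, 2 neuropilins, 4 Robo receptors, 14 Eph receptors and 6 netrin receptors (Dcc, Neo1 and Unc5a to Unc5d) as receptors (35 genes).

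The first table, the rescue table, holds 8 libraries from E14 mouse embryonic stem cells (ESCs) in which both copies of CTCF, the zinc finger protein that marks chromatin loop ends, carry a degron with eGFP, OsTIR1(F74G) sits at Rosa26, an mCherry reporter sits at Hb9, and a dox-inducible Flag-Halo CTCF sits at Tigre. That rescue CTCF is either WT or lacks its first zinc finger (ΔZF1), and each rescue was studied in ESCs and in neural progenitor cells (NPCs) after 2 days of differentiation, with 2 libraries a group. The groups are called ESC-WT and NPC-WT for the WT rescue, and ESC-ΔZF1 and NPC-ΔZF1 for the mutant. All 8 had 1 µM 5-Ph-IAA, which degrades the endogenous CTCF, and 1 µg/ml dox for 24 hours, so that even the WT groups are cells living on induced CTCF. The second, the truncation table, holds 18 libraries of E14 cells with endogenous CTCF and no such treatment in the labels, 3 each of ESCs and day 2 NPCs that were WT or homozygous for an eGFP cassette ending in an SV40 polyadenylation signal that cuts short the Podxl RNA (Podxl pA) or the Grb10 RNA (Grb10 pA). Each engineered line was expanded from single-cell clones, so a difference between lines is also a difference between clones, and no source used here ties the libraries to separate cultures within a line beyond calling them biological replicates, so p-values measure the spread between libraries, which may be partly technical.

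Depth differed between the tables, with 6425179 to 28730435 counts a library in the rescue table and 1907505 to 8845087 in the truncation table. Between 0.137% and 0.212% of all counts fell on the 70 genes. After a filter on low counts, 63 of the 70 could be tested in the rescue table and 50 in the truncation table. Ntn4, Sema3g, Epha3, Epha5, Epha6, Robo3 and Unc5d were under the filter in both, and Slit1, Ntn5, Sema3a, Sema3d, Sema6d, Epha10, Ephb1, Robo2, Dcc, Unc5c, Nrp1, Plxna4 and Plxnb3 in the truncation table only, where their low counts do not show that they are absent. Values are normalized counts, that is counts scaled to the mean library of their table, in replicate order, and a gene is called up- or down-regulated where the adjusted p of edgeR's quasi-likelihood test is at most 0.05 and the log2 fold change at least 0.5 in size. Errors beside log2 fold changes are standard errors, and the 2 tables were normalized apart, so levels are compared within a table. Most genes given with every library's value were picked for a call and no overlap between the 2 groups. That lack of overlap therefore adds no support.

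The labels could be checked on genes outside the families. The 10 pluripotency genes summed to 96511 to 97483 normalized counts in ESC-WT and 10433 to 13791 in NPC-WT, and Podxl and Grb10 counts were lowest in their own pA lines. Ctcf had 14914 ± 359 normalized counts (SD, n = 2) in ESC-ΔZF1 against 10047 ± 187 in ESC-WT, and 13963 ± 162 in NPC-ΔZF1 against 8141 ± 321 in NPC-WT. In the Grb10 pA line it had 692 ± 58.5 (SD, n = 3) against 1079 ± 10.4 in WT ESCs, and 738 ± 14.4 against 1005 ± 19.7 in WT NPCs. These are RNA counts. By Western blot the paper reported similar protein levels of the WT and ΔZF1 rescue CTCF, and unchanged CTCF protein in the pA lines. Of the 7 neural progenitor markers tested, 4 rose from ESC-WT to NPC-WT and 0 fell. The whole list summed to 1418 to 1621 in ESC-WT and 2510 to 3403 in NPC-WT. Sox1 rose in NPCs, but Hes5 and Fabp7 were at 0 in both NPC-WT libraries. Pax6 had 22.7 and 40.4 normalized counts there, so that the day 2 cells carried only part of that signature. With endogenous CTCF, 3 of 7 rose and 1 fell in E14 WT, 4 and 1 in Podxl pA, and 3 and 3 in Grb10 pA. Sums in ESCs and NPCs were 627 to 822 and 802 to 879 in E14 WT. They were 574 to 663 and 734 to 743 in Podxl pA, and 613 to 737 and 520 to 589 in Grb10 pA. Neuron markers summed to 6391 to 6545 in ESC-WT and 2913 to 3237 in NPC-WT, with 1 up- and 3 down-regulated of 8 tested. Surface ectoderm markers, keratins among them, summed to 3504 to 4917 in ESC-WT and 54534 to 79515 in NPC-WT, and to 730.0 to 881 and 839 to 1019 in E14 ESCs and NPCs.

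Per length of exon, in RPKM (counts scaled to exon length and library size), the members of a family differed widely in level. Plxna1, a co-receptor chain for class 3 semaphorins and a direct receptor for class 6, was the highest of all plexins at 27.1 ± 1.62 RPKM in ESC-WT and 49.6 ± 10.1 in NPC-WT (SD, n = 2), and it took 65.0% to 67.7% of the summed plexin level in ESC-WT and 64.2% to 68.8% in E14 NPCs. Epha2, an Eph receptor of epithelia and the early embryo, led its family with 31.4 ± 0.0288 RPKM in ESC-WT and 61.9 ± 4.32 in E14 NPCs. Averaged over the groups of a table, Slit3, Ntn1, Sema4b, Epha2, Nrp2 and Plxna1 were first in their family in both tables, while Efnb1 in the rescue table gave way to Efna4, Robo1 to Robo4 and Unc5b to Neo1 in the truncation table. Among the netrin receptors, Neo1 had 11.4 ± 0.0663 RPKM in ESC-WT and Dcc, the receptor through which netrin-1 attracts commissural axons, only 0.0852 ± 0.00559, with 34.8 normalized counts in its highest library of the rescue table.

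**Figure D1:**
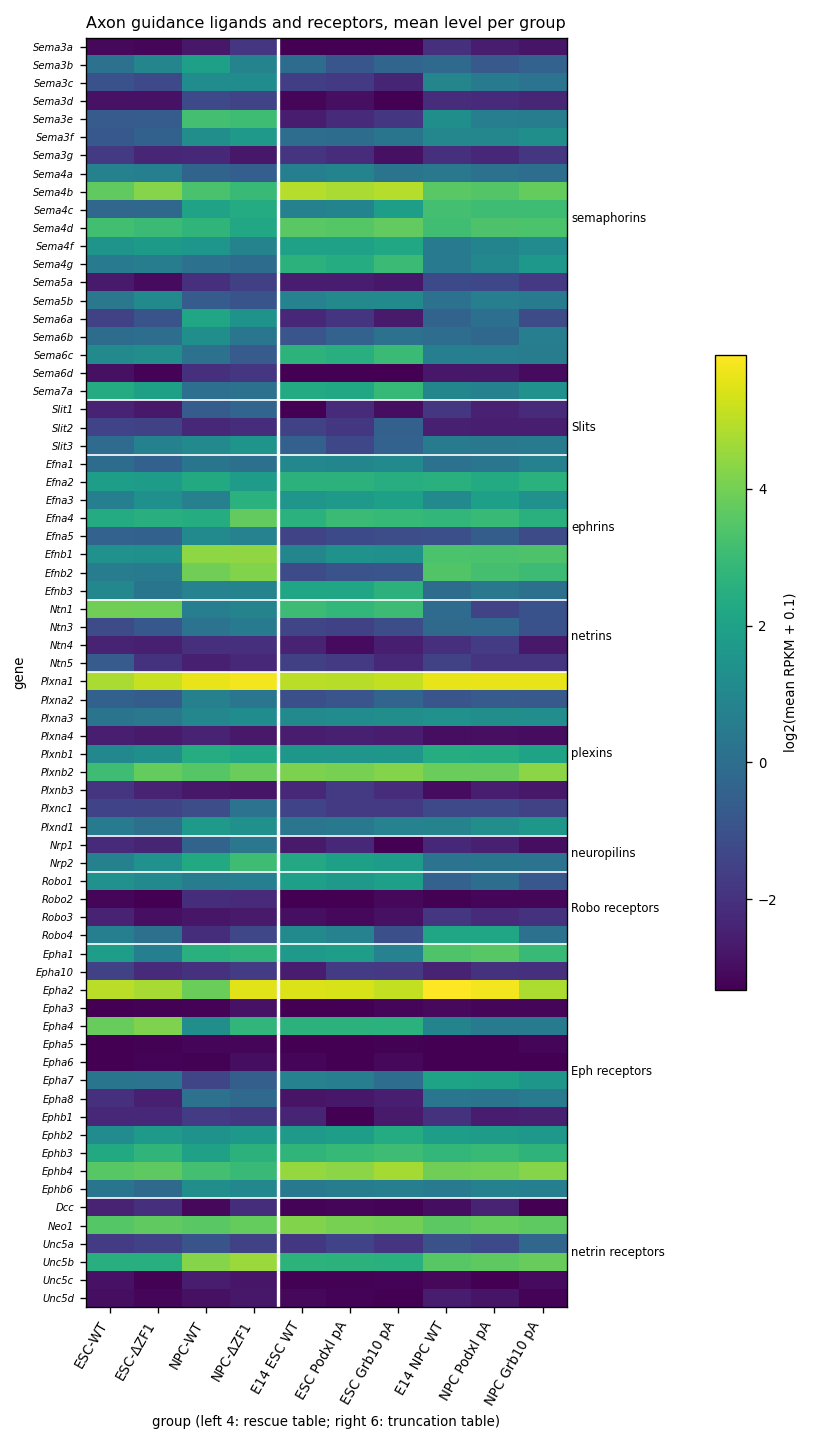
Mean level of each of the 70 genes (rows, by family) in the 10 groups (columns), as log2 of mean RPKM plus 0.1, with the rescue table left of the white line and the truncation table right of it. Plxna1 and Epha2 are the brightest rows, while Epha3, Epha5 and Epha6 are dark in every group, and Efnb1, Efnb2 and Sema3e brighten from ESC to NPC in both tables.

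Differentiation of the rescue line with WT CTCF changed most of these genes. Between ESC-WT and NPC-WT, 28 of the 63 tested were up-regulated and 14 down-regulated, against 22% and 19.9% of all 16641 genes tested. Their median log2 fold change was 0.70, and that of all genes tested 0.01. Sema3c, Sema3e, Sema3f, Efnb1, Efnb2 and both neuropilins rose, whereas Ntn1, Sema7a, Epha4 and Robo4 fell. As these are bulk libraries, more RNA per cell and more cells of a type cannot be told apart.

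Of the semaphorins, 10 rose and 4 fell among 19 tested. Sema3e, the secreted ligand of plexin D1, had 113 and 61.0 normalized counts in the ESC-WT libraries and 1604 and 1357 in the NPC-WT libraries (4.21 ± 0.26, adjusted p = 1.64e-06). Sema6a, a transmembrane ligand of plexins A2 and A4, had 37.7 and 40.3 in ESC-WT and 637 and 681 in NPC-WT (4.06 ± 0.17, adjusted p = 4.28e-07). In both genes each NPC-WT library was far above each ESC-WT library. Other class 3 semaphorins rose less steeply. Sema3c went from 59.3 and 42.6 to 309 and 238 (2.50 ± 0.23, adjusted p = 1.93e-05), Sema3f from 40.4 and 49.5 to 164 and 262 (2.18 ± 0.29, adjusted p = 0.000186) and Sema3b from 67.4 and 100.1 to 255 and 361 (1.80 ± 0.24, adjusted p = 0.000199). None of the ranges met, although the NPC-WT libraries of Sema3b and Sema3f stood apart from each other. Sema4c, a transmembrane ligand of plexin B2, went from 56.6 and 61.0 to 274 and 376 (2.44 ± 0.25, adjusted p = 3.91e-05), and its exons overlap an antisense gene, D430040D24Rik.

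The falling semaphorins were of other classes. Sema7a, which is anchored by a lipid tail and signals through plexin C1 and integrins, dropped from 310.0 and 282 to 36.6 and 74.3 (-2.50 ± 0.28, adjusted p = 6.82e-05). Sema4a had 154 and 146 in ESC-WT and 50.1 and 81.8 in NPC-WT (-1.23 ± 0.25, adjusted p = 0.00286), and Sema5b 121 and 174 and 62.8 and 74.3 (-1.17 ± 0.24, adjusted p = 0.00267). Sema6c fell from 235 and 192 to 74.0 and 142 (-1.02 ± 0.28, adjusted p = 0.0125). In all 4 every NPC-WT library lay under every ESC-WT library. Class 3 members made up 6.30% to 6.94% of the summed semaphorin level per length in ESC-WT and 30.9% to 37.8% in NPC-WT, while class 4 members made up 68.3% to 71.2% and 44.6% to 50.6%.

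Of 8 ephrins, 3 rose and none fell. The transmembrane Efnb1 and Efnb2, which can signal backwards into the cell that carries them, had 164 and 141 and 210.3 and 127 normalized counts in ESC-WT. In NPC-WT they had 1122 and 1402 (3.06 ± 0.16, adjusted p = 7.61e-07) and 1835 and 1852 (3.53 ± 0.21, adjusted p = 1.19e-06). The pair took 21.7% to 22.9% of the summed ephrin level in ESC-WT and 68.7% in both NPC-WT libraries. The other transmembrane ephrin, Efnb3, was at -0.24 ± 0.21 and not called. Of the lipid-anchored A-type ephrins only Efna5 was called up-regulated (1.72 ± 0.25), and Efna1, Efna2, Efna3 and Efna4 lay between 0.02 and 0.47.

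Netrin-1 (Ntn1), the secreted cue of the neural tube floor plate, showed the opposite picture. It had 1674 and 1692 normalized counts in ESC-WT and 126 and 200.1 in NPC-WT (-3.41 ± 0.20, adjusted p = 1.11e-06), so that the ESC libraries were far above the NPC libraries. Ntn3 rose (1.50 ± 0.32), but its exons overlap those of Tbc1d24 on the same strand and of an antisense gene, so its counts are uncertain. Slit1 and Slit3 rose (2.34 ± 0.54 and 1.35 ± 0.27), Slit1 from few counts, and Slit2 fell from 102 and 131 to 65.8 and 27.3 (-1.25 ± 0.33, adjusted p = 0.0112).

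Among the receptors, both neuropilins rose. Nrp1, co-receptor for class 3 semaphorins and VEGF, went from 21.6 and 19.6 to 126 and 108 (2.53 ± 0.28, adjusted p = 6e-05) and Nrp2 from 337 and 331 to 1018 and 1041 (1.62 ± 0.12, adjusted p = 3.4e-06). Unc5b, a netrin receptor, had 617 and 617 in ESC-WT and 1794 and 2443 in NPC-WT (1.78 ± 0.15, adjusted p = 8.82e-06), and 5 of 9 plexins were up-regulated. Of the other netrin receptors, Dcc fell with its ligand Ntn1, from 18.9 and 20.7 to 5.23 and 1.52 (-2.32 ± 0.54, adjusted p = 0.00579), at low counts, and Neo1 had 1747 and 1761 and 1845 and 1782 (0.05 ± 0.10, adjusted p = 0.712).

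Eph and Robo receptors moved both ways. Epha4, which binds ephrins of both types, had 1865 and 2037 in ESC-WT and 303 and 347 in NPC-WT (-2.60 ± 0.12, adjusted p = 5.23e-07), and Epha7 205 and 189 and 61.3 and 36.4 (-1.93 ± 0.24, adjusted p = 0.000137). Epha2 fell less, from 2590.5 and 2587 to 991 and 1417 (-1.11 ± 0.15, adjusted p = 0.00022). In all 3 the ESC libraries lay above the NPC libraries. Epha1 and Epha8 rose (0.70 ± 0.18 and 3.03 ± 0.46). Robo4, the Robo receptor of endothelium, fell from 159 and 125 to 7.47 and 16.7 (-3.68 ± 0.36, adjusted p = 2.65e-05). The 7 endothelium markers summed to 3227 to 3525 in ESC-WT and 333 to 474 in NPC-WT, with 2 up- and 2 down-regulated of 5 tested and Emcn at 0 in both groups, and their part in the result was not tested. Robo2 was called up-regulated from 2 counts in both ESC-WT libraries together and 85 in NPC-WT, and Robo1 down-regulated (-0.83 ± 0.13).

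With ΔZF1 rescue, differentiation changed a similar number, 33 up and 14 down of 63, against 20.4% and 16.9% of all genes tested. Sema3e had 69.9 and 108 in ESC-ΔZF1 and 1302 and 1421 in NPC-ΔZF1 (3.92 ± 0.25, adjusted p = 1.37e-06), Efnb2 135 and 174 and 2198 and 2197 (3.83 ± 0.20, adjusted p = 6.23e-07), and Efnb1 144 and 154 and 1358 and 1235 (3.12 ± 0.16, adjusted p = 5.1e-07). Nrp1 had 13.0 and 20.2 and 219 and 186 (3.59 ± 0.26, adjusted p = 3.03e-06). All 4 were far apart between the stages. Down-regulated were Ntn1, from 1719 and 1583 to 198 and 169 (-3.17 ± 0.19, adjusted p = 1.04e-06), Sema5b, from 290.1 and 225 to 53.5 and 55.8 (-2.23 ± 0.22, adjusted p = 2.42e-05), Sema6c, from 228 and 256 to 57.2 and 54.5 (-2.11 ± 0.27, adjusted p = 0.000151), and Sema7a, from 232 and 208 to 66.5 and 53.8 (-1.87 ± 0.26, adjusted p = 0.000265). Robo2 had no count in either ESC-ΔZF1 library and 108 in NPC-ΔZF1, at least 18.4-fold higher against a floor of 3 counts over the group.

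Epha2 and Efna3 were called up-regulated from ESC to NPC with ΔZF1 rescue but not with WT rescue. Epha2 had 2220.0 and 2164 in ESC-ΔZF1 and 3812 and 3736 in NPC-ΔZF1 (0.78 ± 0.15, adjusted p = 0.00175), a rise where the WT rescue line showed a fall, and the test of that difference is given with the ΔZF1 effects. Efna3 had 113 and 95.3 and 259 and 258 (1.32 ± 0.18, adjusted p = 0.00021), against 67.4 and 61.0 and 58.3 and 72.8 with WT rescue (0.02 ± 0.22, adjusted p = 0.99). The difference of effects for Efna3 was called in the main fit. That call was lost with DESeq2, RLE normalization, a replicate block or chromosome medians as offsets. Sema4f fell from 315 and 279.9 to 150.4 and 158 (-0.94 ± 0.18, adjusted p = 0.00213) and Sema4g fell too (-0.69 ± 0.18, adjusted p = 0.0102), while with WT rescue they were at 0.07 ± 0.19 and -0.45 ± 0.19, and the difference of effects was called for neither (adjusted p = 0.0796 and 0.654). Stages did not overlap in these ΔZF1 comparisons.

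E14 cells with endogenous CTCF offered a second look at the same transition, in other libraries. Of 50 genes tested, 18 rose and 14 fell between WT ESCs and NPCs, against 16.5% and 16.3% of all 13268 genes. The median log2 fold change was 0.21. In Podxl pA cells 18 rose and 12 fell (all genes, 17.1% and 14.7%), and in Grb10 pA cells 17 rose and 15 fell (17.2% and 17.4%). Sema3c, Sema3e, Sema3f, Efnb1 and Efnb2 again rose and Ntn1 again fell.

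Sema3e had 1.02, 3.99 and 3.62 normalized counts in the 3 E14 ESC libraries and 92.1, 100.5 and 116 in the NPC libraries (5.10 ± 0.38, adjusted p = 1.16e-11). Efnb2 went from 15.3, 11.2 and 7.24 to 353, 355 and 329 (4.86 ± 0.21, adjusted p = 2.45e-16) and Efnb1 from 28.5, 24.0 and 34.4 to 148, 183 and 152 (2.55 ± 0.17, adjusted p = 1.4e-12). Every NPC library was several times over every ESC library. Sema4c rose from 30.5, 36.7 and 34.4 to 202, 195 and 176 (2.49 ± 0.16, adjusted p = 4.95e-13). Ntn1 fell from 233, 243 and 232 to 21.1, 27.8 and 25.2 (-3.21 ± 0.20, adjusted p = 2.48e-13), and Sema6c from 204, 171 and 149 to 60.4, 33.5 and 29.9 (-2.15 ± 0.22, adjusted p = 5.4e-09). These 2 ligands again had every NPC library under the ESC libraries. Robo1, next to Robo4 in level among the Robo genes of the truncation table, fell from 321, 279.5 and 252 to 43.8, 54.2 and 53.4 (-2.48 ± 0.14, adjusted p = 2.05e-14) and Sema4g from 279.7, 228 and 228 to 63.4, 46.3 and 50.3 (-2.24 ± 0.16, adjusted p = 5.87e-12).

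The 2 pA lines were compared between the stages in the same way. In Podxl pA cells Efnb2 went from 4.32, 16.0 and 19.2 to 283, 326 and 285 (4.56 ± 0.22, adjusted p = 1.17e-15), Sema4c from 35.6, 37.9 and 38.4 to 197, 168 and 172 (2.25 ± 0.16, adjusted p = 2.93e-12) and Efnb1 from 44.2, 41.5 and 40.8 to 127, 163 and 173 (1.88 ± 0.16, adjusted p = 1.51e-10). Epha1 rose from 58.3, 64.1 and 72.1 to 209.7, 208 and 213 (1.72 ± 0.12, adjusted p = 4.77e-12). Stages did not overlap in any of the 4. Ntn1 fell from 204, 214 and 192 to 3.60, 7.90 and 12.4 (-4.56 ± 0.23, adjusted p = 5.55e-15), Epha4 from 215, 219 and 249.9 to 41.9, 53.5 and 55.2 (-2.14 ± 0.15, adjusted p = 3.04e-12), Sema6c from 161, 158 and 147 to 40.8, 43.9 and 37.3 (-1.94 ± 0.21, adjusted p = 1.91e-08) and Robo1 from 257, 224 and 221 to 73.1, 66.7 and 70.8 (-1.74 ± 0.13, adjusted p = 7.57e-12). In Grb10 pA cells Efnb2 went from 9.08, 20.9 and 12.2 to 251, 274 and 245 (4.27 ± 0.22, adjusted p = 3.89e-15), Epha1 from 28.3, 30.6 and 30.9 to 150.1, 143 and 132 (2.25 ± 0.14, adjusted p = 4.57e-13), Efnb1 from 37.3, 43.5 and 36.5 to 169, 166 and 160.3 (2.09 ± 0.16, adjusted p = 1.53e-11) and Epha7 from 41.4, 40.3 and 42.0 to 147, 129 and 126 (1.71 ± 0.16, adjusted p = 5.89e-10). Down-regulated there were Ntn1, from 188, 298 and 225 to 10.5, 10.5 and 15.2 (-4.27 ± 0.21, adjusted p = 1.39e-15), Robo1, from 307, 280.1 and 269.6 to 36.7, 39.5 and 32.7 (-2.98 ± 0.13, adjusted p = 2.84e-16), Sema6c, from 185, 280.1 and 187 to 52.0, 36.0 and 31.9 (-2.36 ± 0.20, adjusted p = 1.13e-10), and Epha4, from 223, 216 and 232 to 44.1, 58.1 and 45.5 (-2.22 ± 0.15, adjusted p = 8.51e-13).

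Across all 5 ESC to NPC comparisons, which share no library, 14 genes were up-regulated each time: the ligands Efnb1, Efnb2, Sema3c, Sema3e, Sema3f, Sema4c, Sema5a, Sema6a and Slit3, and the receptors Epha1, Epha8, Plxnb1, Plxnd1 and Unc5b. The 5 genes down-regulated each time were Ntn1, Sema6c, Sema7a, Slit2 and Epha4. These are 14 and 5 of the 50 members tested in both tables, where 6.87% of all 13226 genes tested in both were up-regulated and 5.38% down-regulated in all 5. Extraembryonic endoderm markers rose in each of these comparisons, 10 of 14 tested with WT rescue, 14 of 14 with ΔZF1 rescue and 12 of 12 in E14 WT, Podxl pA and Grb10 pA cells, with sums of 5759.8 to 7806 in ESC-WT, 20305 to 25512 in NPC-WT, 637 to 694 in E14 WT ESCs and 5903 to 7555 in E14 WT NPCs, and their part in the results was not tested. Sema3e and Plxnd1, a ligand and its receptor, are both among the 14, with Plxnd1 at 1.23 in the rescue line and 0.56 in E14 cells. Over the 50 genes tested in both tables, log2 fold changes of NPC-WT over ESC-WT and of E14 NPCs over E14 ESCs had a Pearson correlation of 0.72 and a Spearman correlation of 0.69, a description across genes, which are not independent replicates.

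**Figure D2:**
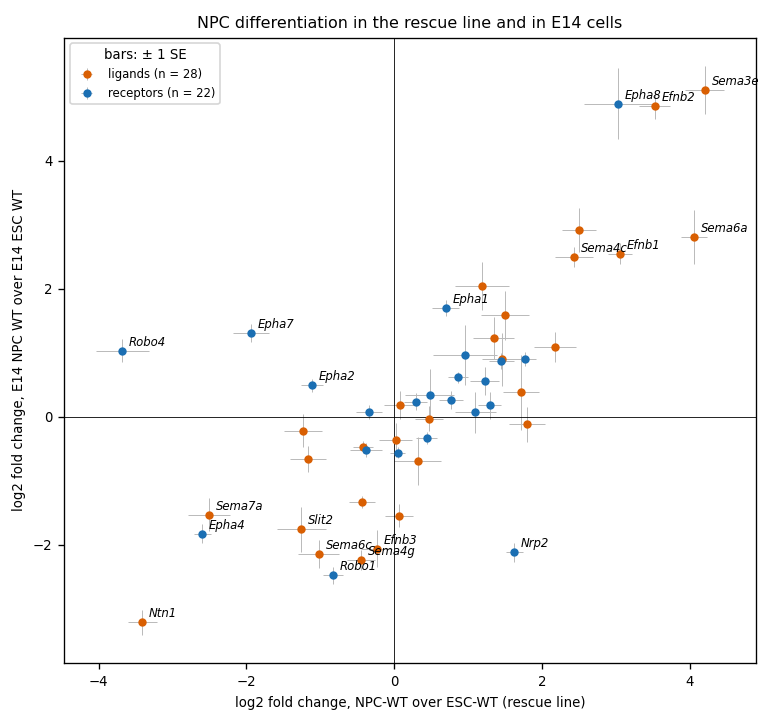
Log2 fold change from ESC to NPC in the WT rescue line (horizontal) and in E14 WT cells (vertical) for the 50 genes tested in both, with ligands in orange, receptors in blue and bars of 1 SE. Sema3e, Efnb2 and Efnb1 lie at the upper right and Ntn1 at the lower left, while Nrp2, Epha7 and Robo4 lie in the opposite quadrants.

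A further 3 genes were called in opposite directions in those 2 settings, all of them receptors. Nrp2 rose in the rescue line (above) and fell in E14 cells, from 260.4, 253 and 263 to 48.3, 61.3 and 67.6 (-2.12 ± 0.15, adjusted p = 5.15e-12). Epha7 fell in the rescue line and rose in E14 cells, from 70.2, 81.5 and 74.3 to 205, 199.6 and 151 (1.30 ± 0.14, adjusted p = 1.32e-08). Robo4 fell in the rescue line and rose in E14 cells, from 53.9, 59.1 and 41.7 to 99.6, 109 and 118 (1.03 ± 0.18, adjusted p = 2.9e-05). In each table the stages of all 3 genes did not overlap. The Podxl pA and Grb10 pA lines moved as E14 did, with log2 fold changes of -1.74 and -1.63 for Nrp2, 1.36 and 1.71 for Epha7, and 1.34 and 1.51 for Robo4. The difference between the tables was not tested, and line and treatment cannot be told apart there. In E14 cells, where Robo4 rose, endothelium markers summed to 576 to 695 in ESCs and 163 to 208 in NPCs. Surface ectoderm markers, given above, were up-regulated in the rescue line (9 of 9 tested), while in E14 cells 1 rose and 1 fell of 7, and their part in this contrast was not tested.

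Efnb3, a transmembrane ephrin of the midline, was up-regulated with ΔZF1 rescue, from 72.5 and 52.4 to 93.2 and 96.7 (0.61 ± 0.21, adjusted p = 0.039), and was down-regulated in E14 cells, from 61.0, 72.7 and 58.0 to 9.06, 23.5 and 6.29 (-2.06 ± 0.29, adjusted p = 1.3e-06). Sema4f fell in E14 cells, from 105, 87.1 and 94.2 to 27.2, 34.9 and 33.0 (-1.55 ± 0.18, adjusted p = 5.9e-08), as did Slit2, from 29.5, 36.7 and 25.4 to 12.1, 9.98 and 4.72 (-1.76 ± 0.35, adjusted p = 0.000175). Values for the other family leaders were as follows. Plxna1 had 4151 and 4517 in ESC-WT and 6777 and 9052 in NPC-WT (0.87 ± 0.14, adjusted p = 0.000556), Slit3 116 and 66.7 and 180.1 and 262 (1.35 ± 0.27, adjusted p = 0.00266), and Sema4b, a transmembrane semaphorin, 1245 and 1334 and 765 and 1159 (-0.43 ± 0.17, adjusted p = 0.0597). In E14 cells Sema4b went from 838, 727 and 793 to 317, 318 and 297 (-1.33 ± 0.10, adjusted p = 1.3e-11), Efna4 from 54.9, 42.3 and 38.0 to 57.4, 51.3 and 47.2 (0.18 ± 0.21, adjusted p = 0.521) and Neo1 from 793, 747 and 670.1 to 469, 527 and 501 (-0.56 ± 0.08, adjusted p = 3e-06).

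A further 74 genes of axon guidance signalling, such as adhesion co-receptors and collapsin response proteins, were listed. Of 72 tested, 35 rose and 7 fell between ESC-WT and NPC-WT, beside 22% and 19.9% of all genes. Between E14 ESCs and NPCs, 17 rose and 14 fell of 66, beside 16.5% and 16.3% of all genes. In the rescue line the rises included Rgma (3.38), a ligand of neogenin, L1cam (2.41), an adhesion molecule of axons, and Dpysl3 (1.49), a collapsin response protein. Flrt2 fell there (-1.25).

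CTCF-ΔZF1 rescue gave few calls among these genes in ESCs in the main fit. Of 63 tested, 2 were up-regulated and 1 down-regulated in ESC-ΔZF1 against ESC-WT, beside 1.29% and 2.33% of all genes. At an unadjusted p under 0.05 in the same test stood 18 of the 63. More were called with only the libraries compared, as given in the last section. Plxnb2, a receptor for class 4 semaphorins, went from 1127 and 1119 to 1884 and 1786 (0.71 ± 0.14, adjusted p = 0.0255) and Nrp2 from 337 and 331 to 543 and 497 (0.64 ± 0.12, adjusted p = 0.0221). Epha1, an Eph receptor of epithelia, fell from 259 and 236 to 95.8 and 114 (-1.22 ± 0.20, adjusted p = 0.0161). The 2 groups did not overlap for any of the 3, which was a condition for giving their values. Each call depended on single libraries: no member was called without any one of the 4 ESC or the 2 NPC-ΔZF1 libraries, and 13 and 12 were called without NPC-WT replicates 1 and 2, whose spread enters the pooled estimate. The exons of Epha1 overlap those of Zyx on the opposite strand, and counting was without strand, so reads of the pair cannot be told apart.

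Epha1 is also one of only 2 genes whose promoter holds the core of the CTCF motif. RefSeq (build GRCm38.p6) gives 300 bases, from 250 before to 50 after the start, for 60 of the 70. The letters CCANNAGNNGGC, searched on both strands and overlapping no other motif searched, occur in 3.33% of these genes and in 2.82% of all 27025 genes with a promoter, so the share is close to the background. The promoters of Epha1 (chr6:42373219-42373518, minus strand) and Plxnd1 (chr6:115994956-115995255, minus strand) are printed 5′ to 3′ with the core in capitals, beside those of Efnb1 (chrX:99135811-99136110, plus strand) and Efnb2 (chr8:8661193-8661492, minus strand), the ephrin pair that rose in every differentiation and has no such letters.
Epha1 promoter: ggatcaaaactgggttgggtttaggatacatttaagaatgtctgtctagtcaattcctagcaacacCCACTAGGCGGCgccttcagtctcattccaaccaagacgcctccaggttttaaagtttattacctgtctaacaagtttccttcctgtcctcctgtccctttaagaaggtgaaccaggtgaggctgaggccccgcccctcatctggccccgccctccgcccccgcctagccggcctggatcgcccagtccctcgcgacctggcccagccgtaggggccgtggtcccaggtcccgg
Plxnd1 promoter: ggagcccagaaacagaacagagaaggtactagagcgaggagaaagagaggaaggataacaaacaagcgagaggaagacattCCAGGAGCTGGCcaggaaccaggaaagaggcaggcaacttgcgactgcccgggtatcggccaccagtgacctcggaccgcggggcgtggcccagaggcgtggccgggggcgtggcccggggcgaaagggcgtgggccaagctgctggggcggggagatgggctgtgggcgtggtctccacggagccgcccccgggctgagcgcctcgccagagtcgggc
Efnb1 promoter: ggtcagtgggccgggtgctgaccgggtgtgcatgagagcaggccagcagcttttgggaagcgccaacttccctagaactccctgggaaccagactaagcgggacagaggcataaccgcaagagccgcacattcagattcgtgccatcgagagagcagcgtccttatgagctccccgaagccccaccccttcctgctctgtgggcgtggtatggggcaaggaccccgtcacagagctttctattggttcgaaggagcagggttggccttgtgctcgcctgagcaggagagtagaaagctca
Efnb2 promoter: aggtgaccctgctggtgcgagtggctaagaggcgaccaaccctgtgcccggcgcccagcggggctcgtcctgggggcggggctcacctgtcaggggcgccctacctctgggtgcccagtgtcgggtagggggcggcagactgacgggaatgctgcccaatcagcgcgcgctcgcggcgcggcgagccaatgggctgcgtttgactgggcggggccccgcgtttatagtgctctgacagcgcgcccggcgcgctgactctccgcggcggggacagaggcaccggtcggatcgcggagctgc
Their GC content was 58.0%, 67.0%, 59.7% and 72.3%. Plxnd1, with a core, was at -0.46 ± 0.21 in ESC-ΔZF1 and -0.37 ± 0.18 in NPC-ΔZF1, neither of them called, so the 2 genes that share the letters did not share a call. No binding of CTCF was measured in these files.

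After differentiation, more members were called with ΔZF1 rescue in the main fit of all libraries. That order did not hold with only the libraries compared, as given in the last section. At an unadjusted p under 0.05 in the main test stood 22 members in NPCs and 18 in ESCs. In NPC-ΔZF1 against NPC-WT, 12 of 63 were up-regulated and 5 down-regulated, beside 7.19% and 10.5% of all genes. The same 2 NPC-WT libraries serve in NPC-WT against ESC-WT, so scatter in them pushes the 2 effects in opposite directions. They were the least alike pair of the rescue table. Their counts differed with a chi-square per degree of freedom of 59.2, against 2.95 to 5.65 in the other groups. The rises included Efna3, Efna4, Epha2, Epha4, Epha7 and both neuropilins, and all 5 falls were semaphorins. Of the 14 given below, Efna3, Epha2, Epha4, Plxnc1, Efna4 and Nrp2 kept their call in all 14 alternatives tried. Some of these alternatives left out a library of neither group.

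Efna3, a lipid-anchored ephrin, had 58.3 and 72.8 normalized counts in the NPC-WT libraries and 259 and 258 in NPC-ΔZF1 (2.01 ± 0.18, adjusted p = 0.000173). Its neighbour on chromosome 3, Efna4, had 130.0 and 169.8 and 386 and 348 (1.31 ± 0.19, adjusted p = 0.00164). For both, the NPC-ΔZF1 libraries were about alike and above every other library of the table, ESCs included, and for both an antisense gene overlaps the exons (Gm15998 and 4731419I09Rik). Efna1, in the same stretch of chromosome 3 (89271733 to 89281142, with Efna3 at 89313899 to 89322965), was at -0.18 ± 0.28. Efnb1 and Efnb2 were at 0.04 ± 0.14 and 0.25 ± 0.17, and none of these 3 was called. The other A-type ephrins were lower in NPC-ΔZF1 and not called. Efna2 had group means of 181 in NPC-WT and 128 in NPC-ΔZF1, and Efna5 143 and 117. Efna3 and Efna4 together took 12.2% to 13.8% of the summed ephrin level in NPC-WT and 28.3% to 29.2% in NPC-ΔZF1.

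Of the 6 EphA receptors tested, 3 rose. Epha2 had 991 and 1417 in NPC-WT and 3812 and 3736 in NPC-ΔZF1 (1.65 ± 0.15, adjusted p = 0.000173), Epha4 303 and 347 and 983 and 964 (1.59 ± 0.11, adjusted p = 4.27e-05) and Epha7 61.3 and 36.4 and 100.1 and 112 (1.05 ± 0.24, adjusted p = 0.0125). In NPC-ΔZF1 Epha2 stood above its ESC level, whereas Epha4 and Epha7 lay between NPC-WT and ESC-WT. Epha1 (0.17 ± 0.17), Epha8 (-0.32 ± 0.30) and Epha10 (0.53 ± 0.36) were not called. Ephb3 had 365 and 539.6 and 725 and 712 (0.68 ± 0.17, adjusted p = 0.0184). Epha2 made up 34.4% to 34.9% of the summed Eph receptor level in NPC-WT and 56.9% to 57.9% in NPC-ΔZF1.

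Both neuropilins rose, Nrp1 from 126 and 108 to 219 and 186 (0.78 ± 0.19, adjusted p = 0.0184) and Nrp2 from 1018 and 1041 to 1769 and 1713 (0.76 ± 0.10, adjusted p = 0.00126). Plxnc1, the receptor of Sema7a, went from 69.5 and 36.4 to 168 and 145 (1.49 ± 0.26, adjusted p = 0.00396), while Sema7a itself was at 0.21 ± 0.29. The exons of Plxnc1 overlap those of Gm48718 on the same strand, and those of Nrp1 overlap Mir1903, so these counts carry that limit. The groups did not overlap for any of the 3 receptors. Dcc had 5.23 and 1.52 in NPC-WT and 34.8 and 26.6 in NPC-ΔZF1 (2.93 ± 0.47, adjusted p = 0.00246), with Sema3a (1.59 ± 0.49) and Robo4 (1.36 ± 0.39) also called from low counts.

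The falls were in semaphorins. Sema3b had 255 and 361 in NPC-WT and 131 and 147 in NPC-ΔZF1 (-1.13 ± 0.21, adjusted p = 0.00521), Sema6b 137 and 189 and 73.3 and 87.6 (-0.998 ± 0.24, adjusted p = 0.0156) and Sema6a 637 and 681 and 380.4 and 410.0 (-0.74 ± 0.13, adjusted p = 0.00363). These 3 had risen from ESC-WT to NPC-WT, a comparison that shares the NPC-WT libraries and is therefore not independent. In NPC-ΔZF1 Sema3b and Sema6b lay near their ESC-ΔZF1 levels. Sema4f went from 219 and 312 to 150.4 and 158 (-0.76 ± 0.18, adjusted p = 0.0167) and Sema4d, a ligand of plexin B1, from 787 and 1014 to 597 and 634 (-0.54 ± 0.14, adjusted p = 0.0195). Without NPC-ΔZF1 replicate 1 there were 7 rises and no fall, without replicate 2 there were 7 rises and 2 falls, and with only the 4 NPC libraries in the fit also 7 and 2, while without NPC-WT replicate 1 there were 11 of each and without replicate 2 there were 19 rises and 4 falls.

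Markers of other cell types differed between the same groups. All 14 extraembryonic endoderm markers rose in NPC-ΔZF1, with sums of 20305 to 25512 in NPC-WT and 115661 to 118464 in NPC-ΔZF1, 0 of the 14 being at 0 in NPC-WT. Of 9 surface ectoderm markers tested, 6 fell and 1 rose, with sums of 54534 to 79515 and 22070.3 to 23181. Their part in the changes of ephrins, Eph receptors and semaphorins was not tested. Chromosome 11 genes also lay low as a whole, at a median of -0.57 on the log2 scale in NPC-ΔZF1 and -0.46 in ESC-ΔZF1, the other autosomes staying between -0.04 and 0.17 in NPCs, and the members on it, Slit3, Efnb3 and Ntn1, were called in neither. Of the 72 other axon guidance genes tested, 3 rose and 9 fell in NPC-ΔZF1, beside 7.19% and 10.5% of all genes. Flrt3 and Flrt2, adhesion molecules that bind Unc5 receptors, rose (1.87 and 1.27), and Kif5c (-1.19), Dpysl5 (-0.70) and Chl1 (-2.31) fell.

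**Figure D3:**
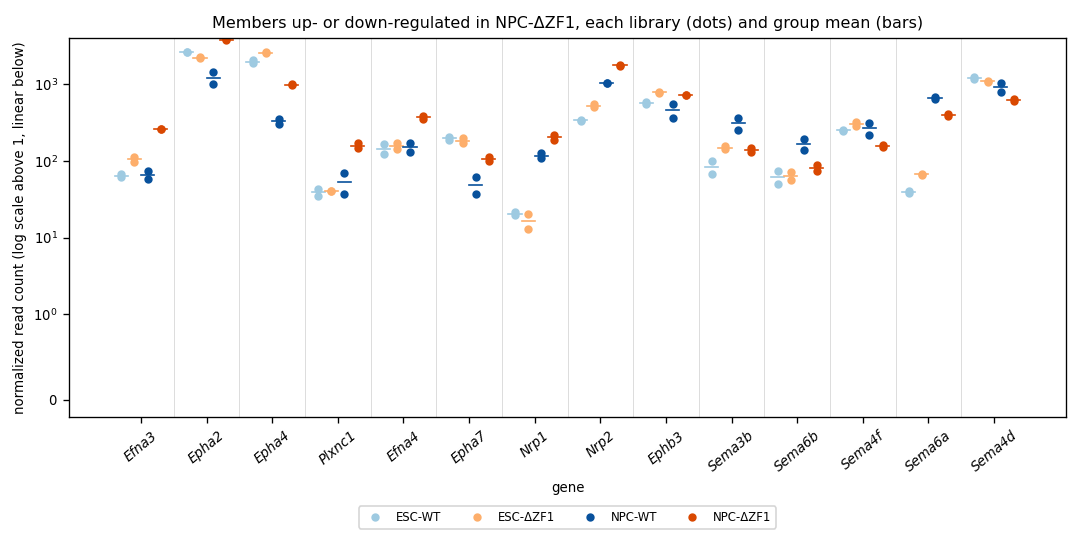
Normalized counts (vertical, log scale above 1) of the 14 genes called in NPC-ΔZF1 against NPC-WT with at least 100 counts in the higher group, each dot a library and each bar a group mean, in the 4 rescue groups. Both NPC-ΔZF1 libraries of Efna3 and Epha2 are above all other libraries, and both Sema6a libraries in NPC-ΔZF1 are under those of NPC-WT and over those of ESCs.

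The effect of ΔZF1 was set against differentiation by testing the difference between its effects in NPCs and in ESCs. Of 63 members, 4 were called with a positive difference and 2 with a negative one, beside 1.59% and 1.11% of all genes. Among the called members Epha2 had the largest positive difference (1.89 ± 0.21, adjusted p = 0.00261), followed by Epha1 (1.40 ± 0.26, adjusted p = 0.0224), Efna3 (1.29 ± 0.29, adjusted p = 0.0449) and Epha4 (1.21 ± 0.16, adjusted p = 0.00535). Sema3b (-1.89 ± 0.33, adjusted p = 0.0168) and Sema6a (-1.49 ± 0.24, adjusted p = 0.0137) had negative differences. Epha1 differs from the rest in that it fell in ESC-ΔZF1 and was at 0.17 ± 0.17 in NPC-ΔZF1. Only Epha2 kept its call in all 13 alternatives. Counts without one of the 4 ESC or the 2 NPC-ΔZF1 libraries were 1 or 2, and 26 and 19 without NPC-WT replicates 1 and 2. Over the 63 genes the ESC and NPC effects had a Pearson correlation of 0.06 across genes, with low-count genes included.

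**Figure D4:**
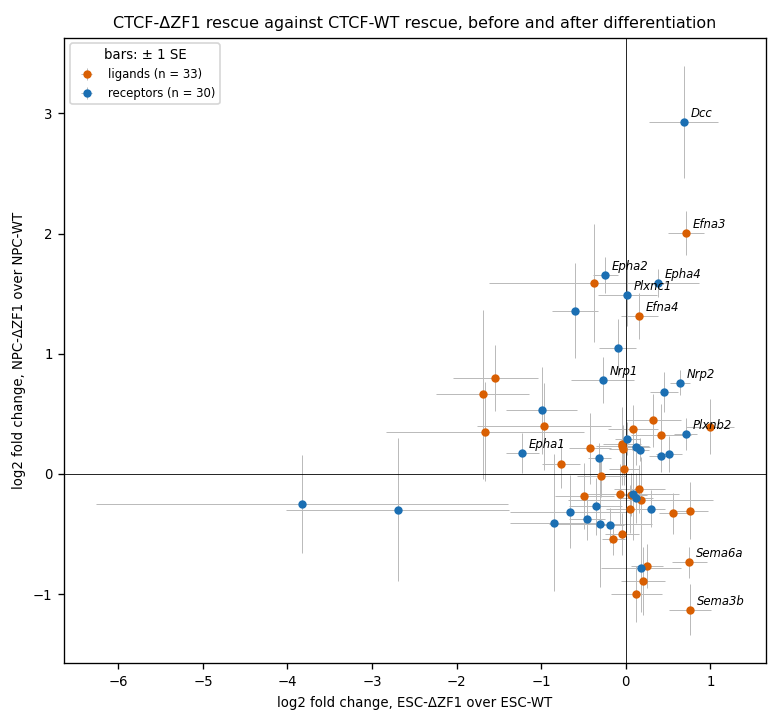
Log2 fold change of ΔZF1 over WT rescue in ESCs (horizontal) and in NPCs (vertical) for 63 genes, ligands in orange and receptors in blue, with bars of 1 SE. Epha2, Epha4 and Efna3 lie high with little or moderate ESC change, and Sema3b and Sema6a lie at the lower right.

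Truncation of the Podxl RNA gave few calls among these genes at this depth. Podxl is a sialomucin, and its own count fell to 105 ± 8.04 (SD, n = 3) from 1148 ± 63.4 in WT NPCs. In ESC Podxl pA against ESC WT, 0 of 50 members were called by edgeR (0.0829% of all genes up and 0.256% down), with 4 at an unadjusted p under 0.05 and 0 by DESeq2. In NPCs 1 was down-regulated and 0 up-regulated (0.166% and 0.384% of all genes). That gene, named after its values were seen, was Ntn1, with 21.1, 27.8 and 25.2 in WT NPCs and 3.60, 7.90 and 12.4 in Podxl pA NPCs (-1.56 ± 0.33, adjusted p = 0.0169). The 2 groups did not overlap, but the counts were low, and the call was lost without NPC Podxl pA replicate 1 or 2 or NPC WT replicate 2, which left 0 members. Extraembryonic endoderm markers rose in these NPCs (7 of 12 tested), with sums of 5903 to 7555 in WT and 10839 to 11758 in Podxl pA, and their part in the result was not tested.

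Truncation of the Grb10 RNA, which encodes an adaptor protein of insulin and growth factor receptors, changed more. Grb10 itself fell to 155 ± 11.7 from 576 ± 23.8 in ESCs and to 255 ± 19.3 from 3709 ± 109 in NPCs. In ESCs 4 members rose and 4 fell of 50, beside 4.51% and 4.58% of all genes. The rises were Slit2 (1.20 ± 0.25), Sema4c (1.12 ± 0.18), Plxna2 (0.87 ± 0.19) and Ephb2, and the falls Robo4 (-2.58 ± 0.28), Epha1 (-0.97 ± 0.17), Epha7 (-0.87 ± 0.17) and Nrp2. Ephb2, which binds B-type ephrins, had 192, 151 and 196 in WT ESCs and 274, 338 and 284 in Grb10 pA ESCs (0.74 ± 0.12, adjusted p = 0.000117), and Nrp2 260.4, 253 and 263 and 214, 180.3 and 150.3 (-0.50 ± 0.13, adjusted p = 0.008). Both were free of overlap, but Nrp2 passed the fold cutoff only barely and lost its call in 3 of 24 alternatives, many of which left out a library of neither group. Slit2, a secreted repellent, had 29.5, 36.7 and 25.4 in WT and 66.6, 70.8 and 80.7 in Grb10 pA ESCs, Plxna2 33.6, 30.3 and 29.0 and 52.5, 59.6 and 59.7, and Robo4 53.9, 59.1 and 41.7 and 7.06, 14.5 and 6.63, all from fairly low counts. Neuron markers fell in these ESCs in 3 of 6 tested, with sums of 1639.7 to 1740.2 in WT and 1034 to 1158 in Grb10 pA, while 3 of 12 extraembryonic endoderm and 2 of 2 glia markers rose, and their part in the result was not tested.

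In NPCs 5 rose and 8 fell, beside 7.9% and 8.64% of all genes. Epha2 had 1241, 1393 and 1413 in WT and 538, 592 and 689 in Grb10 pA NPCs (-1.16 ± 0.10, adjusted p = 6.63e-09). Robo4 had 99.6, 109 and 118 and 23.6, 25.6 and 27.1 (-2.10 ± 0.19, adjusted p = 7.88e-09), and Sema3e 92.1, 100.5 and 116 and 59.8, 48.8 and 72.6 (-0.75 ± 0.21, adjusted p = 0.00783). In all 3 every Grb10 pA library lay under every WT library, and Robo4 was the one member called in the same direction at both stages. Ntn1 (-1.08 ± 0.30), Ntn3 (-0.90 ± 0.32), Sema6a (-0.96 ± 0.30), Sema3c (-0.69 ± 0.24) and Robo1 (-0.50 ± 0.17) fell too. Sema4g rose from 63.4, 46.3 and 50.3 to 119, 127 and 113 (1.19 ± 0.17, adjusted p = 6.81e-06) and Plxnb2 from 533, 518 and 461 to 683, 738 and 743 (0.51 ± 0.09, adjusted p = 0.000153), with Unc5a (0.97 ± 0.33), Plxnd1 (0.73 ± 0.19) and Sema4f (0.69 ± 0.19) as the other rises. Plxnb2 passed the fold cutoff only barely and kept its call in 20 of 24 alternatives, many of which left out a library of neither group. Sema3c had 77.0, 48.5 and 51.9 in WT and 39.9, 29.1 and 35.9 in Grb10 pA NPCs, Sema6a 27.2, 32.1 and 23.6 and 15.2, 11.6 and 16.0, Ntn3 19.6, 19.2 and 20.4 and 13.1, 5.81 and 10.4, and Sema4f 27.2, 34.9 and 33.0 and 56.7, 57.0 and 43.1. DESeq2 called 8 members here, and 8 were called without NPC Grb10 pA replicate 3 or NPC WT replicate 2.

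The effect of Grb10 pA differed between NPCs and ESCs for 5 members, 1 higher and 4 lower, beside 2.86% and 3.04% of all genes. Sema4g had a positive difference (0.79 ± 0.21, adjusted p = 0.0224), and Sema4c (-1.21 ± 0.22, adjusted p = 0.00103), Ntn1 (-1.06 ± 0.33, adjusted p = 0.0496), Ephb2 (-1.02 ± 0.18, adjusted p = 0.000655) and Epha2 (-0.80 ± 0.15, adjusted p = 0.00131) negative ones. For Sema4c and Ephb2 the effect in NPCs was not called, at -0.09 ± 0.12 and -0.28 ± 0.12. Chromosome 8 genes lay low in the Grb10 pA line, at a median of -0.49 on the log2 scale in ESCs and -0.48 in NPCs, and Efnb2, which lies on it, was at -0.44 ± 0.13, adjusted p = 0.0133 in NPCs, under the fold cutoff. Neural progenitor markers fell in the same NPCs (4 of 7 tested), with sums of 802 to 879 in WT and 520.0 to 589 in Grb10 pA and with Hes5 and Fabp7 at 0 in the latter, neuron markers fell in 3 of 6 and extraembryonic endoderm markers in 4 of 12, their part in these changes not being tested. Of 66 other axon guidance genes tested in NPCs, 2 rose and 8 fell, beside 7.9% and 8.64% of all genes. The falls included Crmp1 (-1.49), Dpysl5 (-1.31) and L1cam (-1.07).

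**Figure D5:**
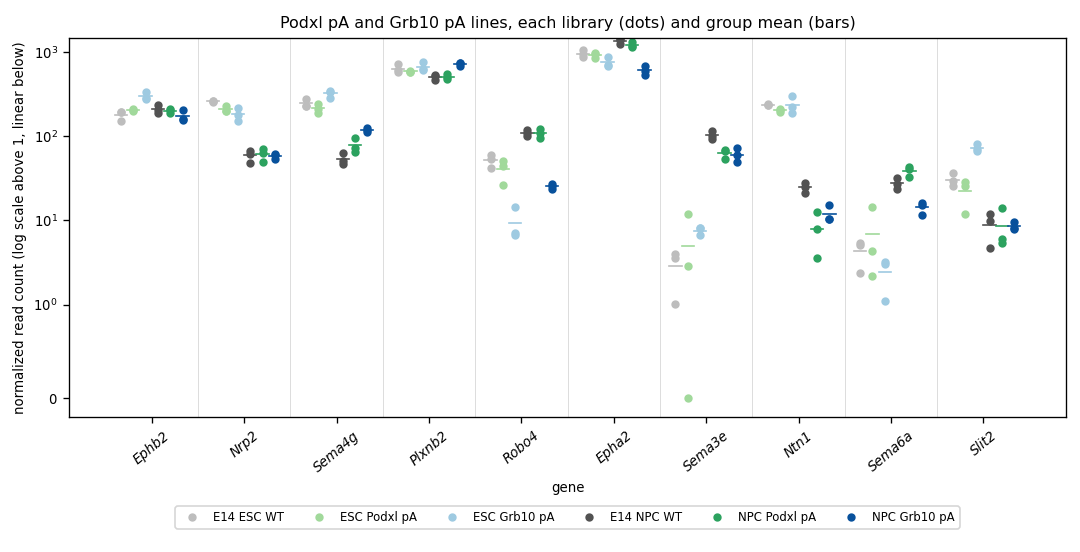
Normalized counts (vertical, log scale above 1 and linear below) of 10 genes in the 6 groups of the truncation table, each dot a library and each bar a group mean. Robo4 and Epha2 in NPC Grb10 pA lie under the other NPC groups, Sema4g lies over them, and Ntn1 in NPC Podxl pA reaches down to 3.60.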

How the data were processed

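RNA was depleted of rRNA and sequenced in 8 rescue and 18 truncation libraries. The deposited values were raw counts per gene, which the authors made by aligning reads to mm10 with STAR and counting them with featureCounts (without strand, by the name given to the deposited tables); the annotation release is not given in the sources used here. Each table lists 55291 genes. A further 3 columns in the truncation table belong to samples not analysed here and were not used.

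From these counts, edgeR 4.0.16 (R 4.3.3; limma 3.58.1) fitted group means to all libraries of a table with TMM normalization and filterByExpr, and its quasi-likelihood F test gave p-values adjusted by Benjamini-Hochberg over all genes tested. Calls required an adjusted p no greater than 0.05 with a change of 0.5 or more on the log2 scale. Normalized counts are counts scaled to the mean effective library size of a table, and RPKM uses exon lengths and positions from GENCODE M21. The fit was tested on simulated data. Depth limits low genes, and intervals of the fit cover the spread between libraries only. The 12 comparisons were of ΔZF1 with WT rescue at each stage and the difference of the effects, NPC with ESC in each of 5 lines, and each pA line with WT at each stage.

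Members, pathway and marker lists were chosen with earlier results of these data known. Values in every library are given for called members with at least 100 normalized counts in the higher group and no overlap, up to 10 rises and 10 falls in NPC-WT against ESC-WT and in NPC-ΔZF1 against NPC-WT and up to 4 each elsewhere, and in at least 1 comparison for the leader of each family and for members called in opposite directions; other genes were named by family. Alternatives were DESeq2 1.42.0, RLE normalization, no filter, only the libraries compared, chromosome medians as offsets, a replicate block and each library left out. Genes with overlapping exons are uncertain, since counting was unstranded. Plxna1, whose exons overlap those of Gm26811 on the opposite strand, is among them.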

Additional observations from a re-analysis of the deposited data

Results flagged for a closer look

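A test of the difference between 2 effects of the same contrast singled out 11 values, each the effect in NPCs minus the effect in ESCs on the log2 scale. For ΔZF1 rescue these were Epha2 at 1.89, Epha1 at 1.40, Efna3 at 1.29, Epha4 at 1.21, Sema6a at -1.49 and Sema3b at -1.89. The Efna3 call was lost with DESeq2, RLE normalization, a replicate block or chromosome medians as offsets. For Grb10 pA they were Sema4g at 0.794, Epha2 at -0.796, Ephb2 at -1.02, Ntn1 at -1.06 and Sema4c at -1.21. Epha2 is in both sets with opposite sign, since it rose in NPC-ΔZF1 and fell in NPC Grb10 pA. Groups of 2 or 3 libraries were too small for a test of single libraries that stand apart.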

How the results depend on the processing

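The ΔZF1 results rest on 2 libraries a group, and their counts moved most. In ESCs, 3 members called became 5 with DESeq2, 8 with no filter on low counts and 12 with only the libraries compared, and 0 to 13 when a library was left out. In NPCs, 17 became 9 with only the libraries compared and 7 to 23 when a library was left out. For the difference of effects, 6 became 15 with no filter and 1 to 26 when a library was left out. In NPC Grb10 pA, 13 became 8 with DESeq2 and 8 to 14 when a library was left out. In NPC Podxl pA, 1 became 2 with only the libraries compared and 0 to 1 when a library was left out. The 7 other comparisons stayed within 1.5 times of their count in every alternative.

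No clear pairing by replicate number was detected: same-numbered libraries had correlations of their deviations between -0.0822 and 0.121. The rescue comparisons hold only 2 pairs, which give the same value, so pairing cannot be settled there. With a replicate block the members called were 3, 17 and 5 for ΔZF1 in ESCs, in NPCs and for their difference. No named gene reversed direction in the alternatives run. Over the named genes, 474 values under other settings kept their call and 12 lost it, and with a library left out 895 kept it and 71 lost it. These genes were picked by their calls in the same data, and many left-out libraries belonged to neither group compared. The tallies therefore overstate stability. Calls held in every alternative for 0 of 3 named genes for ΔZF1 in ESCs, 6 of 14 in NPCs and 1 of 6 for the difference.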
